A study of Mus musculus with 30 samples.

Results

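The genes described here encode the nuclear subunits of the mitochondrial machinery of oxidative phosphorylation, measured as RNA in germline cells of the postnatal mouse testis. They were chosen by symbol alone, as the table entries that begin with Nduf followed by a, b, c, s or v, with Uqcr, with Cox4 to Cox8 or with Atp5, together with Sdha to Sdhd. The symbols matched 90 of 20889 genes. By textbook assignment 82 of the 90 are structural subunits: 36 of complex I, 4 of complex II, 8 of complex III, 19 of complex IV and 15 of complex V. The other 8 are the complex I assembly factors Ndufaf1 to Ndufaf4, Atp5sl (now Dmac2, an assembly factor of complex I), Cox7a2l (a supercomplex factor), Atp5s (now Dmac2l, coupling factor B) and Cox4nb (now Emc8, a subunit of the endoplasmic reticulum membrane complex), whose old symbol alone brought it in. The subunits made from mitochondrial DNA are not analysed here.

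Oxidative phosphorylation runs along the inner mitochondrial membrane. Complexes I and II pass electrons from NADH and succinate to ubiquinone, complex III passes them on to cytochrome c, complex IV reduces oxygen, and complex V, the ATP synthase, uses the resulting proton gradient to make ATP. Several complex IV subunits exist as pairs of a widespread form and a form restricted to one tissue, and the testis has its own forms, as it does of cytochrome c.

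Postnatal testis cells of C57BL/6 mice were selected with magnetic beads against KIT, the surface receptor of differentiating spermatogonia, at postnatal days 7, 12 and 14 (P7, P12 and P14), or against THY1, a surface protein used to enrich undifferentiated spermatogonia, at P0, P7, P12 and P14. Cells of mice with an OCT4-GFP reporter (P0 and P7) or an ID4-GFP reporter (P7) were sorted for GFP, which marks cells in which the promoter of that gene is active. A further group is labelled VASA THY1 at P7, but the protocol names Vasa-GFP sorting at P0 only, so its age is uncertain. No mutant or treated animals are in these groups, and how many animals were pooled for each library is not given in the labels. The deposited values are FPKM, fragment counts scaled for transcript length and for library size. There are 11 columns and 1 value per group, so no test could be made and no difference below has a replicate check. The labels list 2 libraries for each of 5 groups (P7 KIT, P12 KIT, P0 THY1, P7 THY1 and P12 THY1) and 1 library for each of the other 6.

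Germ cell markers were present in every column: the summed level of Ddx4, Dazl, Mael and Dnd1 was 632 to 1468 FPKM, lowest in P0 THY1. The columns also held RNA of other cells, in unequal amounts. Sertoli cell markers (9 of 10 listed were in the table) summed to 17.5 FPKM in P7 ID4-GFP, 39.2 in P14 THY1, 75.4 in P14 KIT, and up to 1349 in P12 THY1. Fibroblast and stromal markers (7 genes) summed to 6728 FPKM in P0 THY1. Macrophage markers (6 genes) summed to 252 FPKM in P0 OCT4-GFP, 283 in P0 THY1 and 174 in P7 OCT4-GFP, and to 56.9 or less elsewhere. Leydig cell markers (6 genes) summed to 1100 FPKM in P7 KIT, the highest of any column. The 8 late meiotic and spermatid markers summed to 2730 FPKM in P14 THY1, 232 in P7 THY1, 83.3 in P14 KIT and 28.6 or less elsewhere. The sum came from different members in these columns. In P14 THY1 it was mostly Ldhc (1409 FPKM), Meig1 (978) and Crisp2 (334), while Acrv1, Prm1, Prm2, Tnp1 and Tnp2 were at 4.93 FPKM or less. In P7 THY1 it was mostly Prm1 (101 FPKM), Tnp1 (55.0), Tnp2 (37.7) and Prm2 (29.7). The column labelled P7 THY1 goes against its label in part. Prm1, a sperm protamine made in spermatids, was listed there at 101 FPKM, at an age before spermatids form. Of the 3 red cell markers listed, 2 had values. In the same column Alas2 was at 83.7 FPKM, and Hbb-b1 was at 0.000294 FPKM. The comparisons that use P7 THY1 are therefore also given with P7 VASA THY1 in its place. That column differs from P7 THY1 in other ways too. Its 4 differentiating spermatogonia markers summed to 313 FPKM, against 311 in P7 KIT and 125 in P7 THY1. Of these, Kit alone was at 38.9, 78.9 and 21.3 FPKM in the same order. The 5 undifferentiated markers summed to 156, 79.8 and 184 FPKM in that order. Sertoli markers summed to 860 FPKM in P7 VASA THY1 and 647 in P7 THY1. Ldhc, the germ cell lactate dehydrogenase, was listed at 1409 FPKM in P14 THY1 and 31.9 in P14 KIT. In these bulk samples, fewer cells of a type and less RNA per cell cannot be told apart.

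The subunits ranked among the abundant RNAs of all groups. The median level over the 11 columns reached 50 FPKM in 62 of the 82 structural subunits, against 1572 of 20889 genes (7.53%). A mean of 5 FPKM or more was reached by 74 of the 82, and in 64 of these 74 the highest column was less than 4 times the lowest. That range was not counted over all genes, so whether it is narrow for genes of this level is not known here. The highest median in each complex belonged to Ndufb9 in complex I (395 FPKM), the iron-sulfur subunit Sdhb in complex II (133 FPKM), the hinge protein Uqcrh in complex III (352 FPKM), Cox4i1 in complex IV (914 FPKM) and the catalytic beta subunit Atp5b in complex V (599 FPKM). The lowest in complexes II and III were also well expressed, Sdhc at 84.0 FPKM and the Rieske protein Uqcrfs1 at 55.4 FPKM. The narrowest range among the 74 was that of Ndufa10 of complex I, whose highest column was 1.48 times the lowest.

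The ubiquitous subunits with the lowest values need care. Atp5g2, which encodes the c subunit of the ATP synthase ring, was at 0.25 FPKM or less in every column, while Atp5g3 reached 101 to 224 FPKM and Atp5g1 reached 5.43 to 20.6 FPKM. These genes encode the same mature protein, so the low Atp5g2 says nothing of the amount of c subunit. Atp5l (0.45 FPKM or less), Ndufab1 (0.77 to 1.75 FPKM) and Cox7c (2.46 to 8.08 FPKM) were also low for genes that every cell uses, as was the somatic cytochrome c gene Cycs (1.15 to 4.45 FPKM). In the RefSeq gene table Atp5l has 2 named pseudogenes, Cox7c has 1 and Ndufab1 has 1. Atp5g2, also low, has 0, while Atp5k, with a mean of 439 FPKM, has 4 and Uqcrh, with a mean of 359 FPKM, has 2. How reads shared between copies were counted is not given in the sources used here, and the cause of the low levels was not tested. The levels of these genes are uncertain, and so are the differences of Cox7c, which enters 3 of the counts below and is named there.

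**Figure D1:**
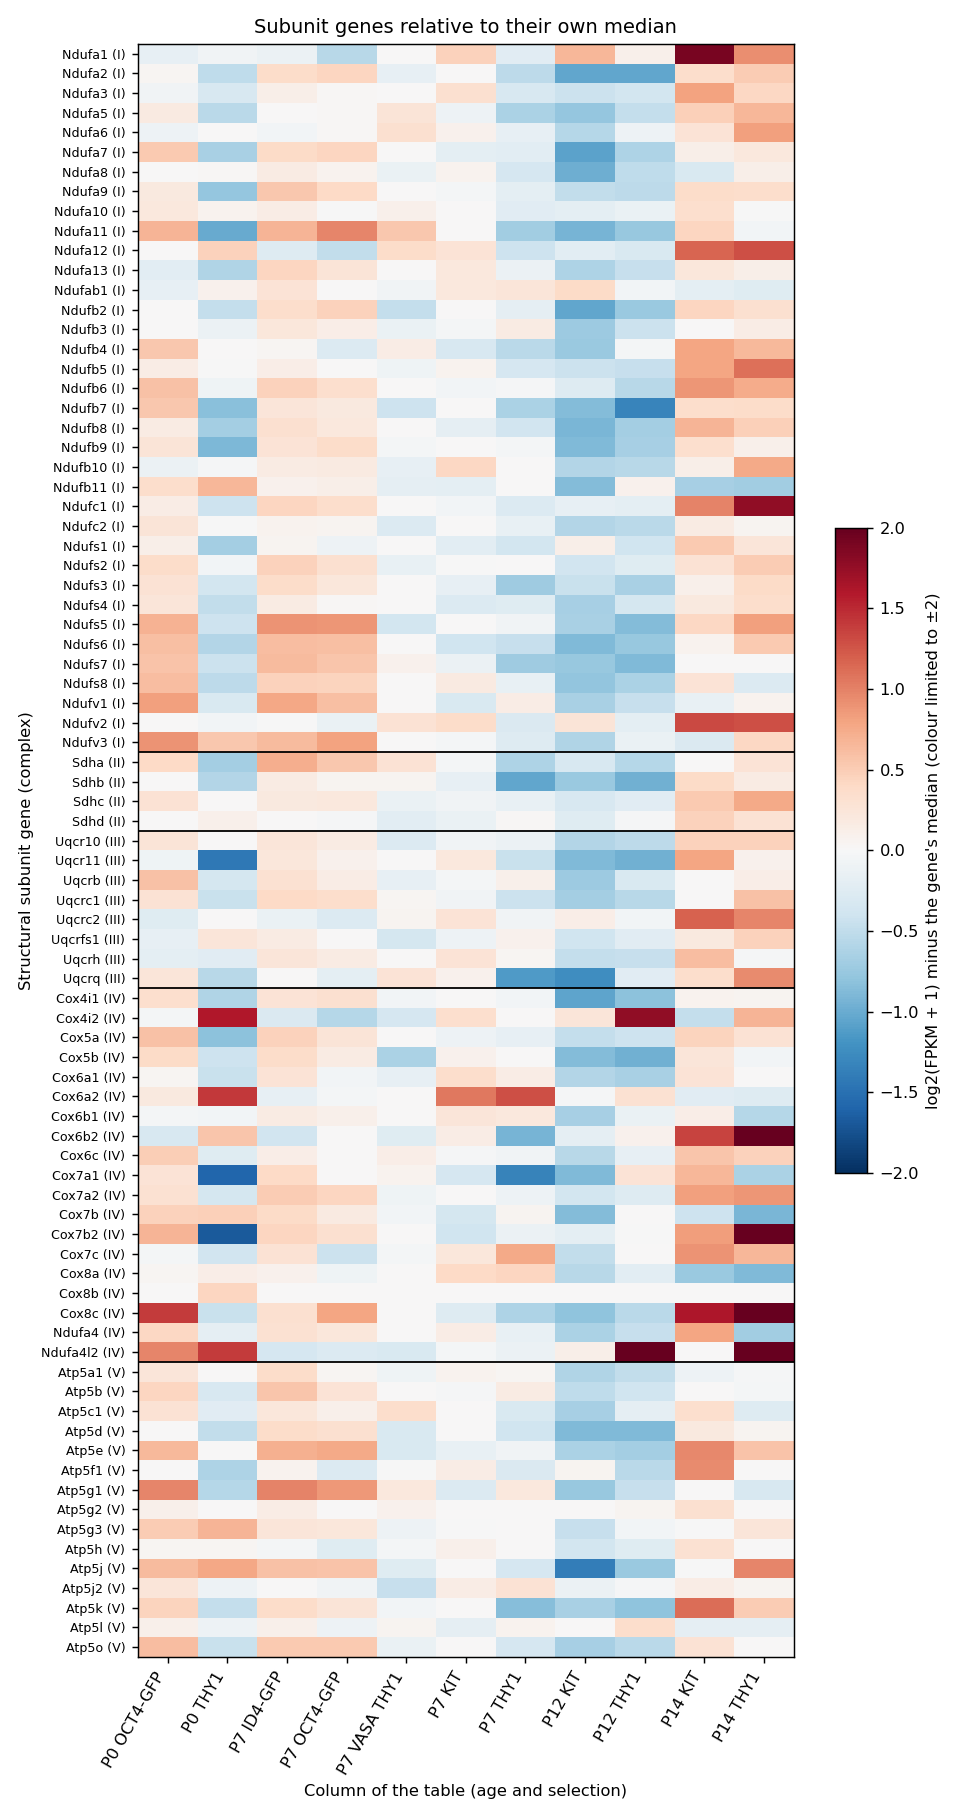
Each structural subunit gene (row, with its complex) in the 11 columns, 1 value per group, as log2(FPKM + 1) minus the gene's own median, with colour limited to 2 in either direction (red above the median, blue below). The P12 columns are mostly blue, with the lowest value of 51 of the 82 genes, and Cox6b2, Cox7b2 and Cox8c are dark red in P14 THY1. The count of lowest values was not made over all genes.

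Over the 82 structural subunits, the median level was 107 FPKM in P0 OCT4-GFP and 76.8 in P0 THY1. At P7 it was 115 FPKM in ID4-GFP, 105 in OCT4-GFP, 85.1 in VASA THY1, 87.2 in KIT and 74.8 in THY1. At P12 it was 70.3 FPKM in KIT and 67.8 in THY1, and at P14 it was 125 FPKM in KIT and 135 in THY1. The lowest column was a P12 column for 51 of the 82 genes, P12 KIT for 42 of them and P12 THY1 for 9. The highest column was P14 KIT for 22 genes and P14 THY1 for 21. The same counts were not made over all genes, so they are not a result about the subunits alone. The summed level of 78 cytosolic ribosomal protein genes was also lowest in P12 KIT (8604 FPKM), and was highest in P7 ID4-GFP (19032 FPKM). The Sertoli marker sum moved the opposite way to the subunits. Over the 11 columns, the median subunit level and that sum, both on the log2 scale with 1 FPKM added, had Pearson's r = -0.89 and Spearman's rho = -0.87. Without the 2 columns farthest in Sertoli sum (P7 ID4-GFP and P14 THY1), r was -0.89 over 9. This is a description with no test, in columns that share genes and a fixed total. The part of Sertoli cell RNA in the subunit levels was not tested. Of the 12 marker lists set against the subunits in this way, peritubular myoid (r = -0.67), endothelial (-0.65) and striated muscle markers (-0.60) also ran the opposite way, and germ cell markers gave 0.65. The other 7 lay between -0.40 and 0.41, with late meiotic markers at the upper end.

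**Figure D2:**
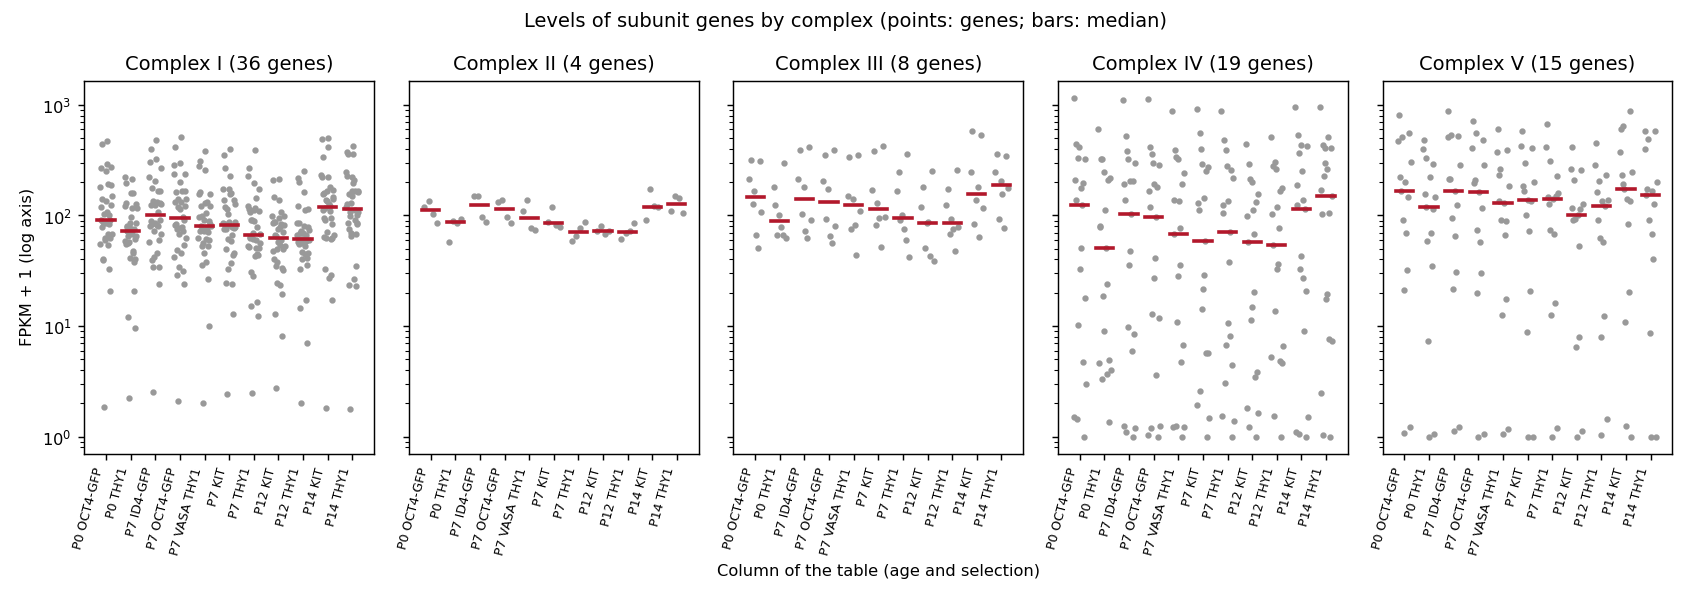
Level of each subunit gene (grey points) and the median of its complex (red bars) in the 11 columns, as FPKM + 1 on a log axis. In FPKM, the median of complex III ran from 84.9 FPKM in P12 THY1 to 189 in P14 THY1, and that of complex I from 60.5 in P12 THY1 to 118 in P14 KIT.

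The tissue-restricted isoforms carried the largest differences. Cox6b2, the testis form of the subunit that binds cytochrome c on the outer side of complex IV, was listed at 296 FPKM in P14 THY1. It was at 31.8 FPKM in P14 KIT, 10.3 in P12 KIT, 12.6 in P12 THY1, 9.27 in P0 OCT4-GFP and 17.8 in P0 THY1. At P7 it was at 8.90 FPKM in ID4-GFP, 11.9 in OCT4-GFP, 9.83 in VASA THY1, 13.2 in KIT and 5.75 in THY1. Only P14 THY1, and to a smaller extent P14 KIT, stood above the other columns. The widespread partner Cox6b1 was at 225 FPKM in P14 THY1, 368 in P14 KIT and 212 to 396 in the other columns. Cox6b2 thus made up 56.8% of the pair's summed FPKM in P14 THY1 and 7.95% in P14 KIT. In the other 9 columns its share was 1.45% to 5.20%.

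Cox8c, the testis form of the small subunit 8, was at 409 FPKM in P14 THY1, 19.8 in P14 KIT, 2.88 in P12 KIT, 3.64 in P12 THY1, 16.9 in P0 OCT4-GFP and 3.96 in P0 THY1. At P7 it was at 7.495 FPKM in ID4-GFP, 10.7 in OCT4-GFP, 5.77 in VASA THY1, 4.67 in KIT and 3.43 in THY1. P14 THY1 stood far above every other column. Its partner Cox8a was lowest in the same column, at 104 FPKM, against 114 in P14 KIT and 130 to 257 elsewhere. Cox8c was 79.7% of the pair in P14 THY1 and 14.8% in P14 KIT. In those columns alone Cox8a fell below 130 FPKM. Cox7b2, the testis form of subunit 7b, was at 514 FPKM in P14 THY1, 137 in P14 KIT, 66.8 in P12 KIT, 75.9 in P12 THY1 and 123 in P0 OCT4-GFP. At P7 it was at 103 FPKM in ID4-GFP, 96.0 in OCT4-GFP, 76.5 in VASA THY1, 58.0 in KIT and 70.3 in THY1. It was at 23.1 FPKM in P0 THY1, the lowest of all. The X-linked partner Cox7b stood at 18.5 to 49.98 FPKM, so Cox7b2 exceeded it in every column but P0 THY1, reaching 96.5% of the pair in P14 THY1. All of Cox6b2, Cox7b2 and Cox8c were highest in P14 THY1. Cox6b2 (log2 difference 1.53), Cox7b2 (1.02) and Cox8c (2.42) were also more than 2-fold higher in P14 KIT than in P12 KIT. They were higher in P14 THY1 alongside the late meiotic marker sum, and the part of late germ cells in that was not tested.

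Cox7a1, known from striated muscle, had a median of 26.2 FPKM over the 11 columns. It was highest in P14 KIT, at 42.1 FPKM, with 16.5 in P14 THY1 and 8.11, its lowest value, in P0 THY1. The 4 striated muscle markers summed to 3.03 FPKM or less in every column. Cox7a1 was 5.87% to 21.1% of its pair with the widespread Cox7a2. The remaining tissue-restricted forms were low. The muscle form Cox6a2 was at 2.29 FPKM or less, Cox8b was at 0 except for 0.35 FPKM in P0 THY1, and Cox4i2, known from lung, was at 4.21 FPKM or less. Ndufa4l2, a hypoxia-induced relative of the complex IV subunit Ndufa4, was listed at 6.31 FPKM in P14 THY1 and 5.57 in P12 THY1, and at 2.99 or less elsewhere. Ndufa4 itself was at 423 FPKM in P14 KIT and 150 in P14 THY1, its highest and lowest values.

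**Figure D3:**
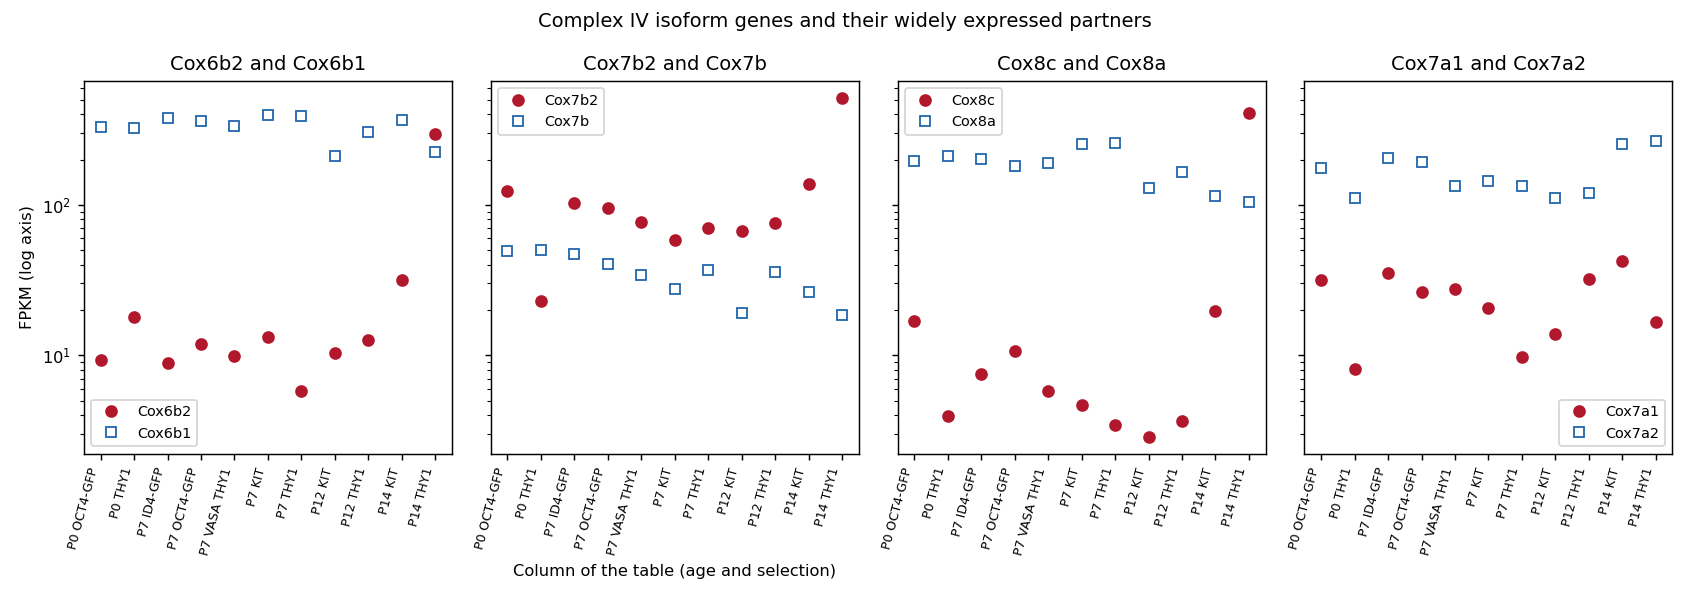
Levels in FPKM of 4 pairs of a tissue-restricted isoform and its widespread partner in the 11 columns, 1 point per column, on a log axis. In P14 THY1 Cox6b2 (296), Cox7b2 (514) and Cox8c (409) stand above their partners.

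The promoters of the testis forms Cox6b2 and Cox7b2, of their partners Cox6b1 and Cox7b, and of Cox8a, from 250 bases before to 50 bases after the gene's start, are shown because the pairs differ in level. Cox8c was not among the promoters used here. The sequences are RefSeq's on GRCm38.p6, which is not the build of the deposited table. Capitals mark matches to CCGGAAG, the ETS core bound by GABP, on either strand; other cores searched were GCGCATG for NRF1 and ATGGCGG for YY1. Cox6b2 lies at chr7:4753045-4753344 on the minus strand, Cox6b1 at chr7:30626065-30626364 on the minus strand, Cox7b2 at chr5:71548156-71548455 on the minus strand, Cox7b at chrX:106015450-106015749 on the plus strand and Cox8a at chr19:7217567-7217866 on the minus strand.
Cox6b2: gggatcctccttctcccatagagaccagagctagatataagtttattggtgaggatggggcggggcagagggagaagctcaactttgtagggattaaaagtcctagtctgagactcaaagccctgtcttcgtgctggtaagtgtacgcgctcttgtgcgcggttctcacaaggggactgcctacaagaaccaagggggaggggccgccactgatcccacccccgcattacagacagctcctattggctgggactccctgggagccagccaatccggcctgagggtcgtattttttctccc
Cox6b1: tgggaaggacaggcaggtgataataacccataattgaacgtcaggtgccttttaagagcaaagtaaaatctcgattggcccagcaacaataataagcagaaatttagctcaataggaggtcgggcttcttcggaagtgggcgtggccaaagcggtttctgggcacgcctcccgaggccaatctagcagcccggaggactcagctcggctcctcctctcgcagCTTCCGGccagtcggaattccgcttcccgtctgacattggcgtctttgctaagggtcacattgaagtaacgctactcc
Cox7b2: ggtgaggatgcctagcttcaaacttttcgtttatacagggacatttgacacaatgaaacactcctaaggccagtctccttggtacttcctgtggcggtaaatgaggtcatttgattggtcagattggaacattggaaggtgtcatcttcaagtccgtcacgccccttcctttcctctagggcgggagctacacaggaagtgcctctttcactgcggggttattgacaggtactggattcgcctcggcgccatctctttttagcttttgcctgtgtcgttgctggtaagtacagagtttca
Cox7b: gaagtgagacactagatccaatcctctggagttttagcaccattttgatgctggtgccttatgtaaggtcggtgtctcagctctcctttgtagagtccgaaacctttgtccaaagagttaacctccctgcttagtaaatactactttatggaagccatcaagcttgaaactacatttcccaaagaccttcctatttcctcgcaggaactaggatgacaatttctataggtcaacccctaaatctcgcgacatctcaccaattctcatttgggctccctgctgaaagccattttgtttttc
Cox8a: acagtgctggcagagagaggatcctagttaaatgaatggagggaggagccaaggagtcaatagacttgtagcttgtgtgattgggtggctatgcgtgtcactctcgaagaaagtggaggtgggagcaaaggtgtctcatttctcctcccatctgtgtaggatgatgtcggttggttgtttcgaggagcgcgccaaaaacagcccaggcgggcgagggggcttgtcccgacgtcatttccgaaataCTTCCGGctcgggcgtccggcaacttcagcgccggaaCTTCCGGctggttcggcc
Cox6b2 and Cox7b2 held 10 CpG each and no match. Cox6b1 held 17 CpG and 1 match, Cox8a 19 CpG and 2 matches, and Cox7b 5 CpG and none. Of the promoters not shown, that of Cyct, the testis cytochrome c, held 8 CpG and 1 YY1 match, that of Cox7a1 7 CpG and none, and that of Cox7a2 20 CpG and none. Of the 82 subunits, 67 were among the promoters used here. NRF1 cores stood in 13 of the 67 (19.4%), against 4.41% of 27025 genes. ETS cores stood in 16 (23.9%, against 9.93%) and YY1 cores in 10 (14.9%, against 4.69%). At least 1 of these was in 32 of the 67 (47.8%), against 16.8% of all genes, and the median CpG number was 19 in the subunits and 8 in all genes. A match is a description of the letters only.

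The first comparison asked how KIT-selected cells differ from THY1-selected cells of the same age. A gene was counted when its log2(FPKM + 1) differed by at least 1, that is 2-fold, with 5 FPKM or more in the higher column. At P7, 3 of the 82 subunits were 2-fold higher in KIT, against 1.31% of all genes, and none lower, against 1.28%. They were Uqcrq of complex III (log2 difference 1.21), Cox6b2 (1.07) and Cox7a1 (1.01). Uqcrq was at 95.7 FPKM in P7 KIT and 40.8 in P7 THY1. Set against P7 THY1, P7 VASA THY1 had 4 subunits 2-fold higher and none lower, against 3.68% and 4.95% of all genes. With P7 VASA THY1 as the control column for P7 KIT, 0 subunits passed the size rule, against 3.31% of all genes higher and 1.33% lower. P7 VASA THY1 held differentiating spermatogonia markers at a sum near that of P7 KIT (313 and 311 FPKM), against 125 in P7 THY1. Leydig cell markers summed to 1100 FPKM in P7 KIT, 109 in P7 THY1 and 8.09 in P7 VASA THY1. The part of either marker set was not tested. At P12 none was 2-fold higher in KIT, against 2.25% of all genes, and 3 were lower, against 3.15%: Ndufa4l2 (-2.01), Cox7a1 (-1.15) and Uqcrq (-1.01). Cox7a1 was at 20.7 FPKM in P7 KIT and 9.74 in P7 THY1, and at 13.8 in P12 KIT and 31.9 in P12 THY1. Uqcrq was at 37.8 FPKM in P12 KIT and 77.4 in P12 THY1. Uqcrq and Cox7a1 thus stood on opposite sides at P7 and P12 when P7 KIT was set against P7 THY1. Set against P7 VASA THY1, P7 KIT differed by -0.20 for Uqcrq and -0.39 for Cox7a1, on the same side as at P12. At P14, Ndufa4 (1.49) and Cox7a1 (1.30) were 2-fold higher in KIT, against 4.11% of all genes. Cox8c (-4.30), Cox6b2 (-3.18), Ndufa4l2 (-2.28) and Cox7b2 (-1.90) were lower, against 7.51% of all genes. The median log2 difference over the 82 was 0.17 at P7, -0.13 at P12 and 0.03 at P14. Shares near the background are not a result about the subunits, and at P14 all 6 that passed belonged to complex IV.

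The widest difference over time lay between P14 and P12. In THY1, 26 of the 82 subunits were 2-fold higher at P14 than at P12 and none was lower, against 8.06% and 8.43% of all genes. Among the 9843 genes with a mean of 5 FPKM or more, 12.5% were higher. The median log2 difference was 0.71, and 69 of 82 were above 0. The largest were Cox8c (6.46), Cox6b2 (4.45), Cox7b2 (2.74), Ndufc1 (1.96), the ATP synthase coupling factor Atp5j (1.72), Ndufs5 (1.70), Ndufb7 (1.68) and Ndufa12 (1.60). Ndufc1 was at 207 FPKM in P14 THY1 and 52.4 in P12 THY1. Complex III had the highest median difference (1.01, 4 of 8 called), then complex II (0.92, 1 of 4), complex I (0.83, 14 of 36), complex IV (0.63, 4 of 19) and complex V (0.35, 3 of 15). Lower values at P14 that did not pass the rule included Cox7b and Cox7a1 (-0.91 each), Ndufb11 (-0.77) and Cox8a (-0.67).

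In KIT, 38 of the 82 were 2-fold higher at P14 than at P12, against 2.6% of all genes and 5.08% of genes with a mean of 5 FPKM or more. None was lower, against 5.26%. The median log2 difference was 0.94 and 75 of 82 lay above 0. By complex the medians were 1.05 in III (5 of 8 called), 1.02 in IV (10 of 19), 1.01 in I (18 of 36), 0.78 in II (1 of 4) and 0.75 in V (4 of 15). The count includes Cox7c (1.39), whose level is uncertain, and was 37 among the 74 subunits with a mean of 5 FPKM or more. The largest was Cox8c (2.42), and Uqcr11 had 580 FPKM in P14 KIT and 181 in P12 KIT. The THY1 and KIT comparisons use no common column: 22 genes passed in both, 84.6% of the 26 and 57.9% of the 38, against 14.5% and 45.1% over all genes. Such shares rise with the share of genes that pass, which was higher in the subunits in both comparisons. They therefore do not by themselves measure agreement. The Sertoli marker sum was 75.4 FPKM in P14 KIT and 541 in P12 KIT, and 39.2 FPKM in P14 THY1 and 1349 in P12 THY1. The fibroblast marker sum was 347 FPKM in P14 KIT and 180.0 in P12 KIT, and 1326 FPKM in P14 THY1 and 439 in P12 THY1. The Leydig cell marker sum was 578 FPKM in P14 KIT and 212 in P12 KIT, and 148 FPKM in P14 THY1 and 66.9 in P12 THY1. The late meiotic and spermatid marker sum was 83.3 FPKM in P14 KIT and 11.6 in P12 KIT, and 2730 FPKM in P14 THY1 and 26.2 in P12 THY1. Their part in the result was not tested. Age and library set cannot be told apart.

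The size of that difference depended on P12. P7 THY1, the column with spermatid markers and Alas2, was set in place of P12 THY1. Then 20 subunits were higher in P14 THY1 and 1 lower (Cox8a, -1.30), against 9.35% and 7.87% of all genes, and the median was 0.53. With P7 VASA THY1 there instead, 9 were higher and none lower, against 8% and 4.91% of all genes, and the median was 0.36. They were Cox8c (5.92), Cox6b2 (4.78), Cox7b2 (2.73), Ndufa4l2 (2.58), Ndufc1 (1.77), Atp5j (1.22), Ndufs5 (1.19), Ndufb5 (1.19) and Ndufv2 (1.01). In KIT with P7 in place of P12, 8 were higher and 1 lower (Cox8a, -1.14), against 2.66% and 4.66%, with a median of 0.32. With quantile normalisation, 15 were higher and 1 lower in P14 THY1 than in P12 THY1, against 8.31% and 8.53% of all genes treated alike. In KIT 18 were higher and none lower, against 2.98% and 4.26%. The 8 that were higher in P14 KIT than in P7 KIT were Cox8c, Ndufa1, Cox7b2, Cox6b2, Atp5k, Atp5e, Ndufb4 and Ndufc1. Ndufa1, X-linked, was at 232 FPKM in P14 KIT, 98.0 in P12 KIT and 84.6 in P7 KIT.

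**Figure D4:**
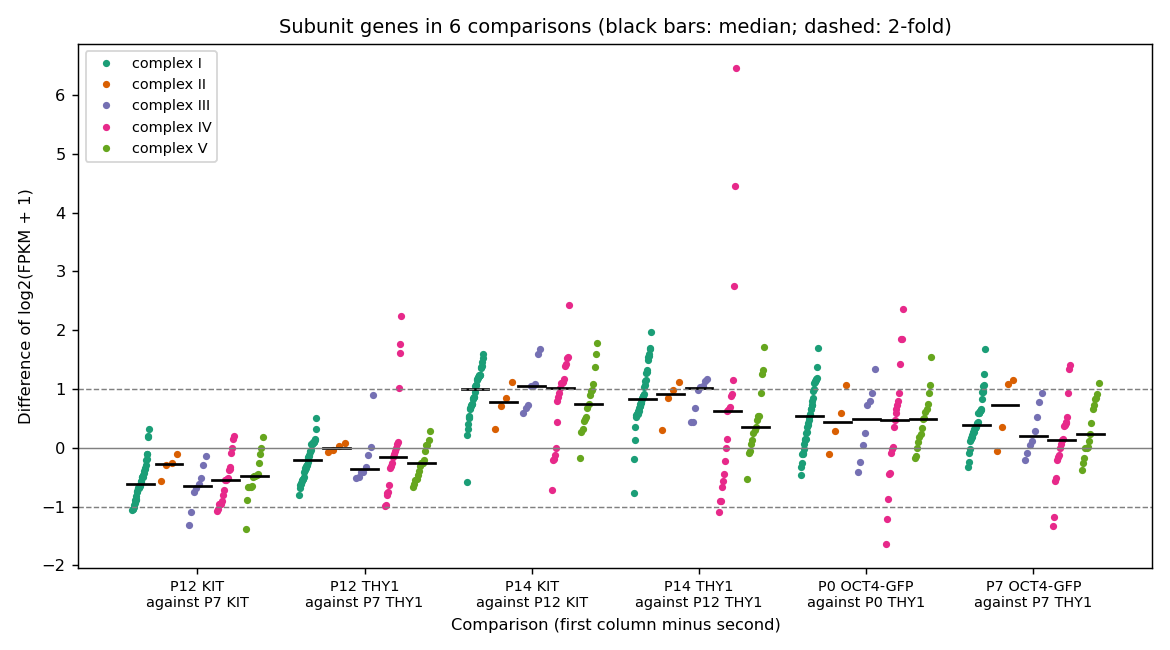
Differences of log2(FPKM + 1) of the 82 structural subunits in 6 comparisons, first column minus second; points are genes coloured by complex, black bars the complex medians, dashed lines 2-fold. Complexes I and III have medians of 1.01 and 1.05 in P14 KIT against P12 KIT, and the highest point is Cox8c (6.46) in P14 THY1 against P12 THY1.

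Between P12 and P7 in KIT, 8 subunits were 2-fold lower at P12, against 1.94% of all genes, and none was higher, against 2.78%. They were Atp5j (-1.38), Uqcrq (-1.32), Uqcr11 (-1.09), Ndufa8 (-1.05), Cox4i1 (-1.05), Ndufb2 (-1.04), Ndufa2 (-1.03) and Ndufb10 (-1.01). Cox4i1 was at 442 FPKM in P12 KIT and 914 in P7 KIT. The median log2 difference was -0.55 with 74 of 82 below 0. The Leydig cell marker sum was 212 FPKM in P12 KIT and 1100 in P7 KIT, and the Sertoli marker sum was 541 and 438 FPKM. Their part in the result was not tested. Cytosolic ribosomal proteins (78 genes), another abundant set and chosen after seeing the data, had a median of -0.67, so the lower values at P12 were shared with them. In THY1 the median was -0.22 and no subunit was 2-fold lower, against 1.11%. Ndufa4l2 (2.24), Cox7a1 (1.62) and Cox6b2 (1.02) were higher, against 2.92% of all genes. Between P7 and P0 in THY1, Cox7b2 (1.57) and Cox7c (1.14), whose level is uncertain, were higher, against 3.3% of all genes. Cox6b2 (-1.48) and Atp5j (-1.12) were lower, against 8.95%, and the median was 0.05. With P7 VASA THY1 in place of P7 THY1, P12 THY1 had Ndufa4l2 (2.43) higher and Ndufa11 (-1.30) and Sdhb (-1.02) lower, against 6.46% and 2.74% of all genes, with a median of -0.38. P7 VASA THY1 against P0 THY1 had Cox7b2 (1.68), Cox7a1 (1.64), Ndufa11 (1.55) and Uqcr11 (1.43) higher and Atp5j (-1.01) lower, against 6.82% and 11.4% of all genes, with a median of 0.21.

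GFP-sorted cells were set against the bead-selected cells of the same age. At P0, 16 of the 82 were 2-fold higher in OCT4-GFP than in THY1 and none was lower, against 7.68% and 11.6% of all genes, and 15.3% of genes with a mean of 5 FPKM or more were higher. The median log2 difference was 0.50. The largest were Cox7b2 (2.36), Cox7a1 (1.85), Cox8c (1.85), Ndufa11 (1.70), Atp5g1 (1.54) and Cox5a (1.42). The fibroblast marker sum was 55.6 FPKM in P0 OCT4-GFP and 6728 in P0 THY1, and germ cell markers summed to 1313 FPKM in P0 OCT4-GFP and 632 in P0 THY1. The part of either in the result was not tested. At P7, 9 subunits were higher in OCT4-GFP than in THY1 and 1 lower (Cox7c, whose level is uncertain), against 4.25% and 5.64% of all genes, with a median of 0.35. That comparison rests on the P7 THY1 column. Against P7 VASA THY1, only Ndufs5 (1.25) and Atp5e (1.07) were higher in P7 OCT4-GFP and no subunit was lower, against 1.37% and 2.15% of all genes, with a median of 0.25. The Sertoli marker sum was 110 FPKM in P7 OCT4-GFP, 647 in P7 THY1 and 860 in P7 VASA THY1. In the same order, macrophage markers summed to 174, 36.2 and 3.47 FPKM, and germ cell markers to 1072, 1061 and 985 FPKM. Their part in these P7 differences was not tested. Between OCT4-GFP cells at P7 and at P0 no subunit passed, against 1.13% of all genes higher and 1.36% lower, and the median was -0.10. ID4-GFP against OCT4-GFP at P7 also gave none, with 0.00957% of all genes higher and 0.732% lower.

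Related pathways were described by count and median. Cyct was at 285 FPKM in P14 THY1, 53.0 in P14 KIT and 26.5 to 124 in the other columns, and its share of the Cyct and Cycs sum is not given because the level of Cycs is uncertain. Pdha2, the testis form of the pyruvate dehydrogenase alpha subunit, was at 149 FPKM in P14 THY1, 15.4 in P14 KIT and 2.77 to 21.0 elsewhere. The germ cell ADP/ATP carrier Slc25a31 was highest in P14 KIT (201 FPKM). Between P14 and P12, when 8.06% of all genes were 2-fold higher in THY1 and 2.6% in KIT, no tricarboxylic acid cycle gene of 14 passed the rule in either THY1 (median 0.16) or KIT (0.37). Mitochondrial ribosomal proteins had medians of 0.49 in THY1 (11 of 76 higher) and 0.73 in KIT (18 of 76). Cytosolic ribosomal proteins had medians of 0.00 in THY1 (3 of 78 higher) and 0.57 in KIT (12 of 78). Complex IV assembly factors (12 in the table) had medians of 0.25 in THY1 (1 higher) and 0.38 in KIT (2 higher). The 12 biogenesis regulators, among them Nrf1, Gabpa and Ppargc1a, had medians of -0.37 in THY1 and 0.00 in KIT. Against that median, Polrmt was 2-fold higher in THY1, at 21.8 FPKM in P14 THY1 and 9.96 in P12 THY1. Ppargc1a was at 0.89 FPKM or less in every column.

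Among the assembly factors, Ndufaf3 stood apart. It was at 170 FPKM in P14 THY1, 16.7 in P14 KIT and 2.89 to 7.75 elsewhere, and its log2 difference between P14 and P12 in THY1 was 4.96. Its neighbours in the RefSeq gene table, Impdh2 (7.12 FPKM), Dalrd3 (13.9), Wdr6 (34.5) and P4htm (4.02), were far lower in P14 THY1. Ndufaf1 ranged over 17.3 to 33.6 FPKM, Ndufaf4 over 6.21 to 10.2 and Ndufaf2 over 29.0 to 68.5. Ndufaf2 was at 66.6 FPKM in P14 THY1 and 32.3 in P12 THY1, and also passed the rule there (1.02). By Pearson's r of log2(FPKM + 1) over the 11 columns among 12269 genes, Ndufaf3 was also the gene most like Cox6b2 (0.99), before Acyp1 (0.98), 4933430H15Rik, Zmynd10 and 4933404O12Rik. The genes most like Cox8c were Cetn1 (0.98), 1700018B08Rik, Ddt, Tcam1 and Zpbp2, and those most like Cox7b2 were Dnajb3 (0.96), 4930504O13Rik, Gfm1, 1700021C14Rik and Ddx19b. All of these genes were highest in P14 THY1, as were the isoforms, so this largely follows from how they were picked. The r values are a description with no test, and r without that column was not computed.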

How the data were processed

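RNA was measured in 16 libraries of C57BL/6 testis cells; the other 14 of the 30 samples were not analysed here. Per the labels' protocols, ribosomal RNA was depleted from total RNA and directional libraries were made. The authors deposited FPKM in 1 table of 20889 genes and 11 columns, 1 value per group; how the replicates were combined is not given in the sources used here. Per the submitters' processing notes, which give no roles, TopHat2 2.0.9, Cufflinks 2.1.1 and CASAVA were used with mm9. Read depth is not in the table, so low values carry an unknown counting error.

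Differences of log2(FPKM + 1) were taken between columns with Python 3.11.15, numpy 2.4.6 and pandas 2.3.3, and plotted with matplotlib 3.10.9. A gene counted as different at 2-fold with 5 FPKM or more in the higher column. The limma test planned for per-library columns was not run, since the table has 1 value per group. The calculation was checked on simulated data with known 4-fold changes. The rule for named genes took every tissue-restricted isoform and its partner, the highest and lowest member of each complex, up to 8 called members per comparison, the 5 genes most like each testis isoform and up to 3 genes per related list; Ndufaf3, Uqcr11, Ndufa10 and Ndufa1 were singled out after their values were seen. The subunits and lists were chosen with earlier results of these data known. The ribosomal protein lists, the use of P7 in place of P12, the OCT4-GFP comparison at P7, the use of P7 VASA THY1 beside both and the relation with Sertoli markers were added after seeing the data. Alternatives tried were other pseudocounts, floors and scalings, and other columns.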

Additional observations from a re-analysis of the deposited data

Results flagged for a closer look

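Some subunits stood on opposite sides of THY1 in KIT at different ages, each by 2-fold or more; every difference is of log2(FPKM + 1) between single values, and none of these was tested. Cox6b2 was higher in KIT at P7 (1.07) and lower at P14 (-3.18), a gap of 4.25. Cox7a1 was higher in KIT at P7 (1.01) and lower at P12 (-1.15), a gap of 2.16, and at P14 (1.30) it was higher again, a gap of 2.45 from P12. Uqcrq was higher in KIT at P7 (1.21) and lower at P12 (-1.01), a gap of 2.22. The P7 values rest on the column labelled P7 THY1, and with P7 VASA THY1 in its place no subunit passed the size rule at P7. The differences from P7 VASA THY1 were 0.39 for Cox6b2, -0.39 for Cox7a1 and -0.20 for Uqcrq, the last 2 on the same side as at P12. Differentiating spermatogonia markers summed to 313 FPKM in P7 VASA THY1, near the 311 in P7 KIT and above the 125 in P7 THY1.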

How the results depend on the processing

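No paired analysis was possible because the table holds 1 value per group, and for the same reason no replicate could be left out. Of 112 recomputed values, 92 stayed within bounds (a count within 1.5 times, a median within 0.1 on the log2 scale), 20 moved and 0 reversed. Only the medians of P14 against P12 in THY1 and KIT and of P12 against P7 in KIT could be labelled reversed. Counts pool higher and lower genes. For P12 against P7 in THY1, 3 higher and 0 lower became 1 higher and 2 lower with P7 VASA THY1, within bounds. The cause of the moves was not tested. With quantile normalisation the number of subunits passing the rule became 1 for P12 against P7 in THY1, 16 for P14 against P12 in THY1 (median 0.53), 5 for P12 against P7 in KIT and 18 for P14 against P12 in KIT (median 0.68), and the P0 OCT4-GFP against P0 THY1 median became 0.34. With P7 VASA THY1 in place of P7 THY1, the count of KIT against THY1 at P7 was 0, and the medians were 0.21 for P7 against P0 and -0.38 for P12 against P7. With P7 in place of P12 (chosen after seeing the data), the P14 THY1 median was 0.53 (with P7 VASA THY1 there, a count of 9 and a median of 0.36), and P14 KIT had a count of 9 and a median of 0.32. With P7 columns in place of P0 columns, OCT4-GFP against THY1 had a count of 10 and a median of 0.35, or 2 and 0.25 with P7 VASA THY1 in place of P7 THY1. With a floor of 1 FPKM, P7 against P0 OCT4-GFP had a count of 1. Under quantile normalisation, the median of the per-gene shifts over all 90 members was -0.21 for P14 against P12 in THY1 and -0.14 in KIT. It was -0.22 for P0 OCT4-GFP against P0 THY1. In the same order, the medians over the 82 subunits moved from 0.71 to 0.53, 0.94 to 0.68 and 0.50 to 0.34. Those differences are smaller on that scale.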
